A study of Mus musculus with 7 samples.

Results

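The MHC class II pathway was read through 7 genes of the 25127 in the RNA counts, chosen by name: the chain genes H2-Aa, H2-Ab1 and H2-Eb1, the invariant chain gene Cd74, the peptide editor genes H2-DMa and H2-DMb1, and Ciita, the transactivator of the other 6. All 7 were in the table. They were read in CD11b+ enriched cells, myeloid cells in the main, of C57/Bl6 mice. The tumor-bearing mice carried LLC tumors, a transplantable Lewis lung carcinoma, and were sampled at day 14, whereas the naive mice had no tumor. RNA and surface antibody tags were counted in the same single cells. The libraries of tumor-bearing mice held 1917 cells of tumor tissue, 354 of blood, 579 of spleen and 57 of bone marrow. The libraries of naive mice held 814 cells of blood, 416 of spleen and 153 of bone marrow. Each group was 1 library, and the labels used here give no age, sex or number of animals.

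As background, a class II molecule is an alpha and a beta chain that hold a peptide for CD4+ T cells, and it marks cells that present antigen. Newly made chains are held by the invariant chain, the product of Cd74, and the H2-DM heterodimer later exchanges the leftover of that chain for antigenic peptides. Ciita does not bind DNA itself but docks on a complex of RFX, NF-Y and CREB proteins at the SXY promoter boxes of these genes. Dendritic cells and B cells make Ciita constitutively, and macrophages make it after interferon-gamma.

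H2-Aa encodes the alpha chain and H2-Ab1 the beta chain of I-A, the class II molecule of this strain. H2-Eb1 encodes the beta chain of I-E, whose alpha chain mice of the b haplotype do not make. In the GENCODE annotation of GRCm38, H2-Aa lies on chromosome 17 at chr17:34282744-34287823 on the minus strand. On the plus strand of that chromosome lie H2-Ab1 at chr17:34257689-34269419, H2-Eb1 at chr17:34305867-34316674, H2-DMa at chr17:34119541-34139101 and H2-DMb1 at chr17:34153072-34160230. Ciita lies at chr16:10480059-10528418 on the plus strand. H2-Eb1 overlaps the antisense gene Gm20513, Ciita overlaps Dexi on the other strand, and H2-DMa overlaps CR974462.3 on its own strand and Brd2 on the other. H2-DMb1 has the near-identical copy H2-DMb2, which held at most 6 UMIs in any library, so reads shared by the 2 copies are uncertain.

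Promoters were matched by symbol in RefSeq (build GRCm38.p6) for 4 of the 7 members. Those of H2-Aa, H2-Eb1 and H2-DMb1 are shown because their levels varied together over clusters and they carry letters of the boxes that the Ciita complex reads. Each run covers 250 bases before to 50 bases after the gene's start, 5′ to 3′ on the gene's strand. Capitals mark matches to the Y box core TGATTGG, to the X1 box, and to the cyclic AMP element TGACGTCA, searched on both strands. The matched X1 letters are the first of the capital stretches in the H2-Eb1 and H2-DMb1 lines. The letters were chosen with the sequences in view.
H2-Aa, chr17:34287774-34288073, minus strand: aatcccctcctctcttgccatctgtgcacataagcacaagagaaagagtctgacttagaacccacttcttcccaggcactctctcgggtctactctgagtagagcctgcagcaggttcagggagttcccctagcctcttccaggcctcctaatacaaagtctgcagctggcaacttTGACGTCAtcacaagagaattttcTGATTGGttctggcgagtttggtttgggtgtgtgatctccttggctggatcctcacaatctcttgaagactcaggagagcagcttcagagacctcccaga
H2-Eb1, chr17:34305617-34305916, plus strand: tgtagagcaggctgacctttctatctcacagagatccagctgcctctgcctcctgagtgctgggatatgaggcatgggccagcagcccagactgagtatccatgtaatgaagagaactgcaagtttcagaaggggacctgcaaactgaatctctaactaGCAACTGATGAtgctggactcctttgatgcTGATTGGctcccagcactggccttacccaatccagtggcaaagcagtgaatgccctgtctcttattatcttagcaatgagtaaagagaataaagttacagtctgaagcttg
H2-DMb1, chr17:34152941-34153240, plus strand: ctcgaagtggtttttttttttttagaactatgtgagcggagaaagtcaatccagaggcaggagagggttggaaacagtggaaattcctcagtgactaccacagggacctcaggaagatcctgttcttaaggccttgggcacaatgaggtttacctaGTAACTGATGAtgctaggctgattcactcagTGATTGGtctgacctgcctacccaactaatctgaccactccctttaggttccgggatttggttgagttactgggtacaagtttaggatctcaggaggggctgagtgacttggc
The Y box core began 50 bases before the start in H2-Aa, 61 bases before it in H2-Eb1 and 63 bases before it in H2-DMb1. The X1 match began 91 bases before the start in H2-Eb1 and 94 bases before it in H2-DMb1, and the cyclic AMP element began 74 bases before it in H2-Aa. No capital stretch overlapped another. Of all 32851 promoters in the table, 7.82% held the Y box core, 0.925% the X1 pattern and 1.79% the cyclic AMP element. Both the Y box core and the X1 pattern stood in 27 promoters, or 0.0822%. Because the letters were chosen with the sequences in view, these shares describe their rarity and test nothing about the members. Both windows matched to H2-DMa in RefSeq, chr17:34122582-34122881 and chr17:34125268-34125567, held none of the searched motifs. Neither covers the start of its GENCODE span given above, so the promoter of H2-DMa may lie outside them. A match describes the letters and shows no binding.

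The libraries held 617821 UMIs in bone marrow of tumor-bearing mice up to 20844058 in tumor tissue, and median UMIs per cell ran from 8841 in tumor tissue to 12445 in blood of tumor-bearing mice. The CD11b gene Itgam was detected in 87.6% to 92.7% of the cells of every library, and all 6 classical monocyte markers were detected in every library. T or NK cell markers summed to at most 2.26 UMIs per 1000000 (CPM). B cell markers summed to 44.0 CPM in tumor tissue and to between 202 and 373 CPM elsewhere, conventional dendritic cell markers to 70.4 CPM in tumor tissue and to between 105 and 166 CPM elsewhere, and macrophage markers to 3124 CPM in tumor tissue and to between 138 and 209 CPM elsewhere. Of all barcodes, 2 occurred in 2 libraries each. With 1 library per group no test was possible, so ratios carry an exact 95% Poisson interval that covers counting error only. The terms higher and lower mark a ratio of at least 2-fold in either direction, for genes with at least 30 UMIs over the libraries compared and 20 CPM in one of them. Fewer expressing cells and less RNA per cell cannot be told apart in a summed level, so shares of cells are given as well.

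The class II chains were most abundant in tumor tissue and least abundant in bone marrow. H2-Aa stood at 1024 CPM in tumor tissue, 776 in blood, 660.4 in spleen and 144 in bone marrow of tumor-bearing mice, and at 621 in blood, 574 in spleen and 145 in bone marrow of naive mice. Each step in its order exceeded counting error except that between the bone marrow libraries. H2-Ab1 stood at 898 CPM in tumor tissue, 653 in blood, 573 in spleen and 131 in bone marrow of tumor-bearing mice, and at 511 in blood, 525 in spleen and 125 in bone marrow of naive mice. H2-Eb1 stood at 734 CPM in tumor tissue, 420.2 in blood, 334 in spleen and 69.6 in bone marrow of tumor-bearing mice, and at 276 in blood, 276 in spleen and 48.0 in bone marrow of naive mice. For both of these beta chain genes, naive blood and naive spleen were neighbours whose ratio interval included 1, as were the bone marrow libraries.

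Cd74, whose product chaperones the chains, was likewise highest in tumor tissue and lowest in bone marrow, with a narrower span. It stood at 3289.8 CPM in tumor tissue, 3098 in blood, 2865.5 in spleen and 1002 in bone marrow of tumor-bearing mice, and at 2884 in blood, 2698 in spleen and 899.6 in bone marrow of naive mice. Blood of naive mice and spleen of tumor-bearing mice, neighbours in its order, did not differ beyond counting error.

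Of the peptide editor genes, H2-DMa departed from the order of the chains. H2-DMa stood at 246 CPM in tumor tissue, 325 in blood, 329.8 in spleen and 270.3 in bone marrow of tumor-bearing mice, and at 346 in blood, 339.9 in spleen and 321 in bone marrow of naive mice. No neighbours in its order differed beyond counting error, and tumor tissue, highest for the chains, was lowest for H2-DMa. H2-DMb1 stood at 226 CPM in tumor tissue, 226 in blood, 171 in spleen and 107 in bone marrow of tumor-bearing mice, and at 213 in blood, 160.1 in spleen and 127 in bone marrow of naive mice. Its order was led by blood of tumor-bearing mice and tumor tissue, which did not differ beyond counting error, and ended with the bone marrow libraries, which did not either.

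Ciita was the rarest member and had an order of its own. It stood at 10.2 CPM in tumor tissue (213 UMIs), 19.9 in blood (90 UMIs), 40.7 in spleen (234 UMIs) and 8.09 in bone marrow (5 UMIs) of tumor-bearing mice. In naive mice it stood at 21.5 CPM in blood (210 UMIs), 26.9 in spleen (119 UMIs) and 12.98 in bone marrow (20 UMIs). The step between spleen of tumor-bearing mice and naive spleen, the top of its order, was the 1 step whose interval excluded 1.

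Shares of cells with a UMI told apart how many cells carried each gene. H2-Aa was detected in 43.8% of cells in tumor tissue, 37.0% in blood, 56.3% in spleen and 21.1% in bone marrow of tumor-bearing mice, and in 37.3% in blood, 43.8% in spleen and 10.5% in bone marrow of naive mice. With every cell thinned to 3000 UMIs, the share was 30.02% in tumor tissue, 22.6% in blood, 32.3% in spleen and 12.3% in bone marrow of tumor-bearing mice, and 23.2%, 24.9% and 8.61% in the same tissues of naive mice. Spleen of tumor-bearing mice thus led in both for H2-Aa, but not for the other chains. H2-Ab1 was detected in 51.0% of cells in tumor tissue and 50.6% in that spleen, and thinned in 32.8% and 29.7%. H2-Eb1 was detected in 39.5% of cells in tumor tissue and 44.7% in that spleen, but thinned in 25.6% and 22.0%. H2-DMa was detected in 73.8% of cells in tumor tissue, where Cd74 was detected in 86.2%, and in 86.0% to 91.5% of cells elsewhere. Ciita was detected in 6.57% of cells in tumor tissue, 16.1% in blood, 21.8% in spleen and 3.51% in bone marrow of tumor-bearing mice, and in 16.3% in blood, 16.3% in spleen and 7.84% in bone marrow of naive mice. After thinning it was detected in 2.39% of cells in tumor tissue, 5.73% in blood and 9.27% in spleen of tumor-bearing mice. As a background, the 83 neutrophil-like cells of cluster 12 had a median of 6233 UMIs per cell. They had H2-Aa in 22.9% of cells (7.58% thinned) and Ciita in 1.20%. Bone marrow, at medians of 10920 UMIs in tumor-bearing and 10281 in naive mice, had H2-Aa shares below 22.9% unthinned and above 7.58% thinned. Its shares are therefore not read as shares of expressing cells. The H2-Aa UMIs of bone marrow lay mostly in few cells, those called high below. In tumor-bearing mice 6 high cells held 82 of the 89 UMIs, and in naive mice 9 held 215 of 224.

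**Figure D1:**
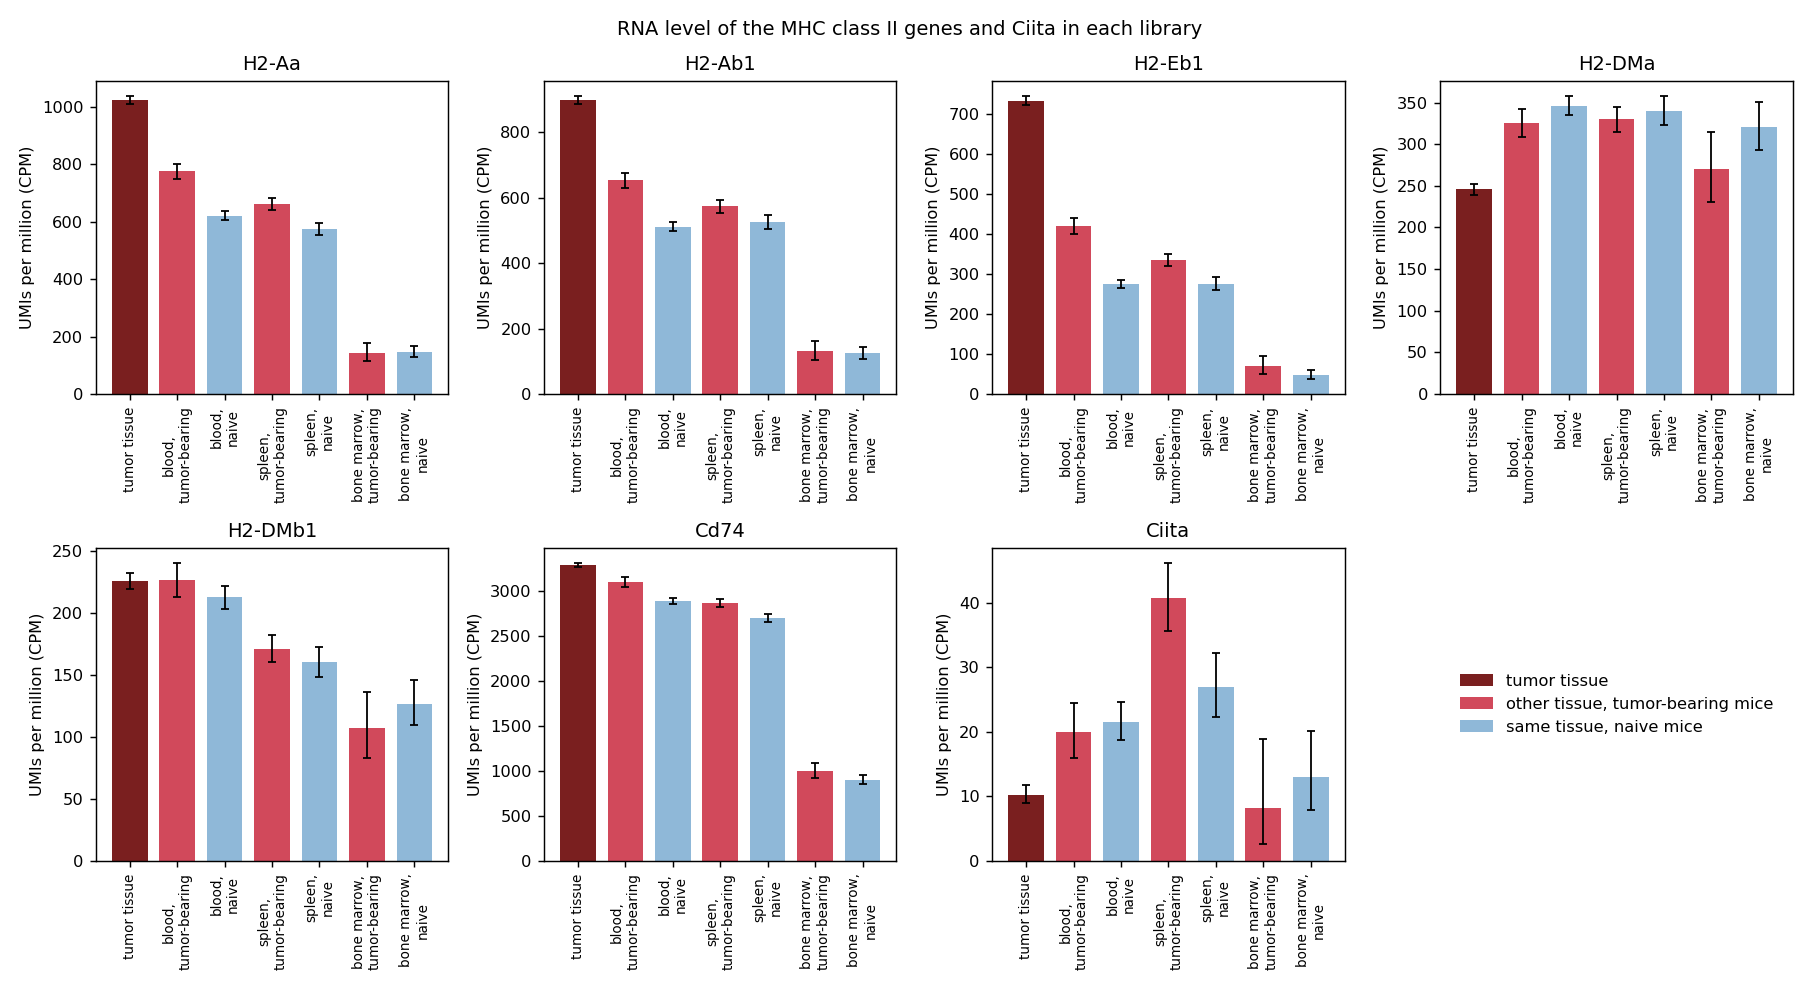
RNA level (y axis, UMIs per 1000000) of each member in the 7 libraries (x axis), with bars for summed counts and whiskers for exact 95% Poisson intervals. The chain genes and Cd74 are highest in tumor tissue and lowest in bone marrow, H2-DMa is lowest in tumor tissue at 246 CPM, and Ciita is highest in spleen of tumor-bearing mice at 40.7 CPM.

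Tumor-bearing mice were set against naive mice in each tissue to see whether a distant tumor goes with a different class II level. In blood, 0 of the 7 members were higher and 0 lower, where 0.566% of all measured genes were higher and 0.132% lower. The ratio was 1.25 for H2-Aa (interval 1.20 to 1.30), 1.28 for H2-Ab1 (1.22 to 1.34) and 1.52 for H2-Eb1 (1.44 to 1.62), and 0.93 for Ciita (0.72 to 1.19). In spleen, 0 of 7 members were higher and 0 lower, against 0.332% and 0.0553% of measured genes. The chain ratios there were 1.09 to 1.21, and Ciita had a ratio of 1.51 (1.21 to 1.90). In bone marrow, 0 of the 6 measured members were higher and 0 lower, against 1.34% and 1.89% of measured genes, and Ciita was below the minimum. The median log2 ratio of the measured members was 0.10 in blood, 0.13 in spleen and 0.03 in bone marrow, beside 0.01, 0.02 and 0.04 over all measured genes. Without clusters 6 and 17, the 2 clusters highest in class II, H2-Eb1 in blood had a ratio of 2.44, and in bone marrow it had a ratio of 2.82. Of the pathway lists described below, 0 genes were higher or lower in blood, spleen or bone marrow. Neutrophil markers, which mark cells low in class II, summed to 3637 CPM in tumor-bearing and 1269.8 in naive mice in blood, and to 4489 and 2583 in spleen. Their part in these ratios was not tested.

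Tumor tissue was set against the other tissues of tumor-bearing mice, and these 3 comparisons share the tumor tissue library. Against blood, 0 of 6 measured members were higher and 0 lower, where 10.9% of measured genes were higher and 9.44% lower. H2-Eb1 had a ratio of 1.75 (1.67 to 1.83), H2-DMa of 0.76 (0.71 to 0.80) and Ciita, below the minimum, of 0.51 (0.40 to 0.66). Against spleen, H2-Eb1 was higher at 2.20 (2.09 to 2.30) and Ciita lower at 0.25 (0.21 to 0.30), so that 1 of 7 members was called in each direction, beside 10.7% and 12% of measured genes. H2-Aa had a ratio of 1.55 and H2-Ab1 of 1.57 in that comparison. Against bone marrow, 5 of 6 measured members were higher and 0 lower, where 12.2% of measured genes were higher and 12.1% lower. The ratios were 10.55 for H2-Eb1 (7.83 to 14.59), 7.11 for H2-Aa (5.77 to 8.86), 6.85 for H2-Ab1 (5.51 to 8.63), 3.28 for Cd74 (3.03 to 3.56) and 2.11 for H2-DMb1 (1.66 to 2.74), and 0.91 for H2-DMa (0.78 to 1.07). The H2-DMb1 call ended with each cell thinned to 3000 UMIs, where its ratio was 1.25. Neutrophil markers summed to 288 CPM in tumor tissue and 7809.7 in bone marrow of tumor-bearing mice, beside the blood and spleen sums above, and their part in these ratios was not tested. The measured members had a median log2 ratio of 0.24 against blood, 0.40 against spleen and 2.24 against bone marrow, beside -0.13, -0.15 and -0.17 over all measured genes.

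Other genes of the pathway were read from lists, and their counts stand beside the shares of all measured genes given above, 10.9% higher and 9.44% lower against blood. Of 5 antigen processing genes, the proteases Ctsl and Lgmn were higher in tumor tissue than in blood of tumor-bearing mice, and the ubiquitin ligase gene March1, whose product removes class II from the surface, was lower. Ctsl stood at 654 CPM in tumor tissue and 71.4 in blood, Lgmn at 1272 and 184, and March1 at 40.6 in tumor tissue and 84.4 in blood. Ctsl and Lgmn were higher against spleen and bone marrow too, and March1 was lower against spleen, while against bone marrow its ratio was 0.55. Of the 5 measured genes of the promoter complex, which encodes the RFX, NF-Y and CREB proteins, 0 were higher and 0 lower in any of the 6 comparisons of whole libraries. The co-stimulatory genes Cd80, Cd86 and Cd40, 3 of 3, were higher against blood, and Cd80 and Cd86 also against spleen and bone marrow. Cd86 stood at 146 CPM in tumor tissue and 21.9 in blood. Of 8 interferon-gamma signalling genes, Socs1, a feedback inhibitor of the pathway, was higher against blood at 81.0 CPM in tumor tissue and 13.9 in blood. Ifngr1, a receptor chain, and Usf1, a transcription factor that binds a Ciita promoter, were lower in that comparison, Ifngr1 at 362 CPM in tumor tissue and 742 in blood. The lineage regulators Spi1 and Irf8 were neither higher nor lower, and the class II genes H2-Eb2, H2-DMb2, H2-Oa and H2-Ob were below the minimum throughout.

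Over the 16 clusters of the authors that held counts, the chains spanned a wider range than over libraries. Because the clusters were made from these cells, the levels are a description. Cluster 17, 55 cells of tumor tissue led by Klrd1, H2-Eb1, Cd209a, H2-Ab1 and H2-Aa, had the highest level of all 7 members, with H2-Aa at 7664 CPM, Cd74 at 18837 CPM and Ciita at 98.2 CPM. Only 1 of its 10 leading genes was a marker of conventional dendritic cells, so it stays unnamed. Cluster 6, 294 cells almost all from outside the tumor, came next with H2-Aa at 2082 CPM, Cd74 at 7948 CPM and Ciita at 80.8 CPM. Its leading genes joined Igkc, Cd79a and Cd79b, which mark B cells, with Cd209a, a dendritic cell gene, and with Ciita, and it stays unnamed too. The neutrophil-like cluster 12 had the lowest H2-Aa, at 41.5 CPM, and cluster 0, led by Mmp8, Camp and F13a1, had 57.8 CPM. The macrophage-like cluster 11 of tumor tissue had 1126 CPM and the non-classical monocyte-like cluster 4 had 522 CPM.

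The highest cluster exceeded the lowest by 267-fold for H2-Eb1, 185-fold for H2-Aa, 120.1-fold for H2-Ab1 and 54.8-fold for Cd74, but by 25.9-fold for H2-DMb1 and 7.01-fold for H2-DMa. Clusters 7 and 13 held 0 Ciita UMIs. Cluster 17 exceeded cluster 7 in Ciita at least 77.8-fold, with 3 UMIs as the floor for cluster 7. H2-Aa was detected in 22.9% of the neutrophil-like cells of cluster 12, whose type should lack it, at a median of 6233 UMIs per cell. It was detected in 100% of the cluster 17 cells, at a median of 10695 UMIs per cell. Ciita was detected in 1.20% of the cluster 12 cells and in 54.5% of the cluster 17 cells. Thinned, H2-Aa was in 7.58% and 98.2% of these cells, and Ciita in 1.52% and 34.5%.

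**Figure D2:**
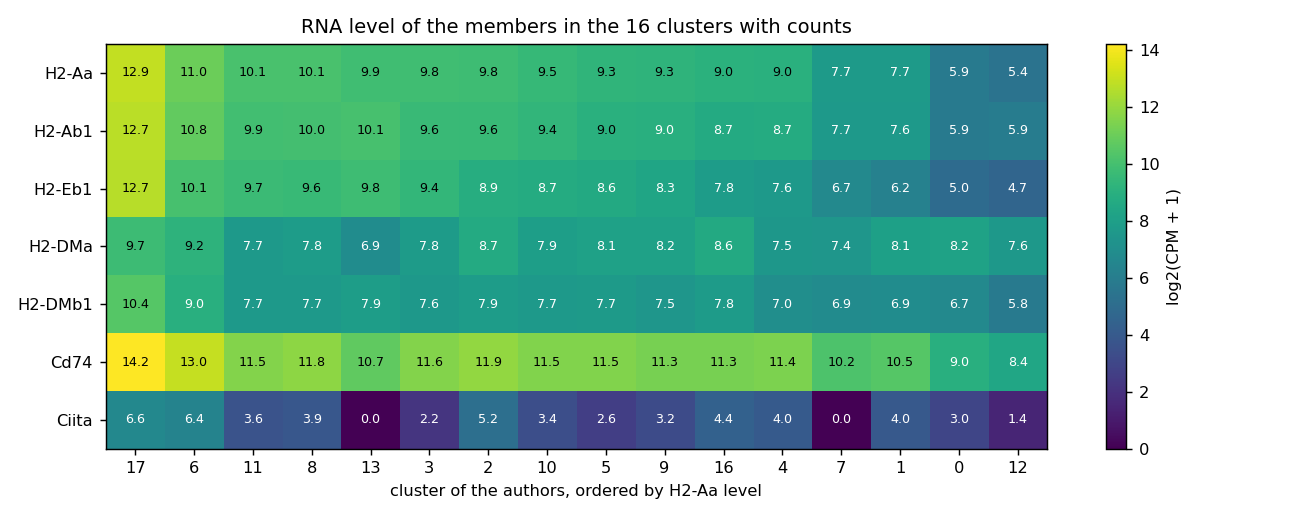
Heat map of log2(CPM + 1) for the 7 members (rows) in the 16 clusters with counts (columns, ordered by H2-Aa level), with the value printed in each cell. The chain genes and Cd74 are highest in cluster 17 and lowest in clusters 0 and 12, H2-DMa spans 7.01-fold, and Ciita is at 0 in clusters 7 and 13.

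Over 32 groups of at least 30 cells of 1 cluster in 1 library (7 libraries, 15 clusters), H2-Aa and H2-Ab1 had a Pearson correlation of 0.99 on log2(CPM + 1), and H2-Aa and H2-Eb1 of 0.98. H2-Aa and Cd74 also had 0.98, H2-Aa and H2-DMb1 0.85, H2-Aa and Ciita 0.62 and H2-Aa and H2-DMa 0.43. Without clusters 6 and 17, over 27 groups, the value was 0.99 for H2-Ab1 and 0.97 for Cd74 with H2-Aa, 0.42 for Ciita and 0.01 for H2-DMa. These groups share libraries and depth, so the values describe likeness and carry no test. Among 7602 genes, those most like the mean of the 6 members other than Ciita were Grap2 and Klrd1 at 0.79, Hspa8 at 0.77, H2-K1, Aif1 and Slamf7 at 0.76, Il2rg at 0.75 and Relb at 0.74. Those most like Ciita were Cyb561a3 at 0.82, Slamf7 and Batf3 at 0.78, Dpp4 at 0.76 and Rab43 at 0.75, and Slamf7 was in both sets.

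Within a library the chains were concentrated in few cells. In tumor tissue the 10% of cells with the most summed chain UMIs held 80.3% of the H2-Aa, H2-Ab1 and H2-Eb1 UMIs. This ranking was not scaled by the total UMIs of a cell, so deeper cells enter it more readily. That share was 87.1% in blood, 78.0% in spleen and 91.1% in bone marrow of tumor-bearing mice, and 84.3% in blood, 85.7% in spleen and 98.0% in bone marrow of naive mice. The median cell of tumor tissue had 1.39 summed chain UMIs per 10000, whereas its highest cell had 642. A cell was called high at 10 or more summed chain UMIs per 10000, a limit chosen after the values were seen, which marks a range and not a cell type. In tumor tissue 461 of 1917 cells were high (24.0%, exact Clopper-Pearson interval 22.1% to 26.0%) and 8.97% of its cells lay between 5 and 20 per 10000. High cells made up 18.1% in blood (14.2% to 22.5%), 19.7% in spleen (16.5% to 23.2%) and 10.5% in bone marrow (3.96% to 21.5%) of tumor-bearing mice. They made up 16.3% in blood (13.9% to 19.1%), 15.4% in spleen (12.1% to 19.2%) and 5.88% in bone marrow (2.72% to 10.9%) of naive mice. These intervals cover the counting of cells in 1 library each and are no comparison of conditions.

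High cells were spread over many clusters. In tumor tissue, cluster 17 held 11.7% of the high cells and 23.1% of the chain UMIs, and cluster 11 held 13.02% and 22.3%, while the remaining high cells lay mostly in clusters 3, 8 and 5. In blood, cluster 6 held 28.1% of the high cells of tumor-bearing mice and 42.1% of those of naive mice, and in spleen 36.0% in tumor-bearing and 45.3% in naive mice. Cluster 2 held 31.2% of the high cells in blood of tumor-bearing mice and 13.5% in naive blood, and 37.7% in spleen of tumor-bearing mice and 12.5% in naive spleen. The small cluster 13, at a median of 1477.5 UMIs per cell, had 80.0% high cells, of which the 2 cells deep enough for thinning to 3000 UMIs had 0. B cell UMIs were seen in 10.2% of high cells and 4.88% of other cells in tumor tissue, and in 25% and 16.6% in blood of tumor-bearing mice. Without all cells that held such a UMI, the high share was 23.0% in tumor tissue and 16.6% in blood of tumor-bearing mice.

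**Figure D3:**
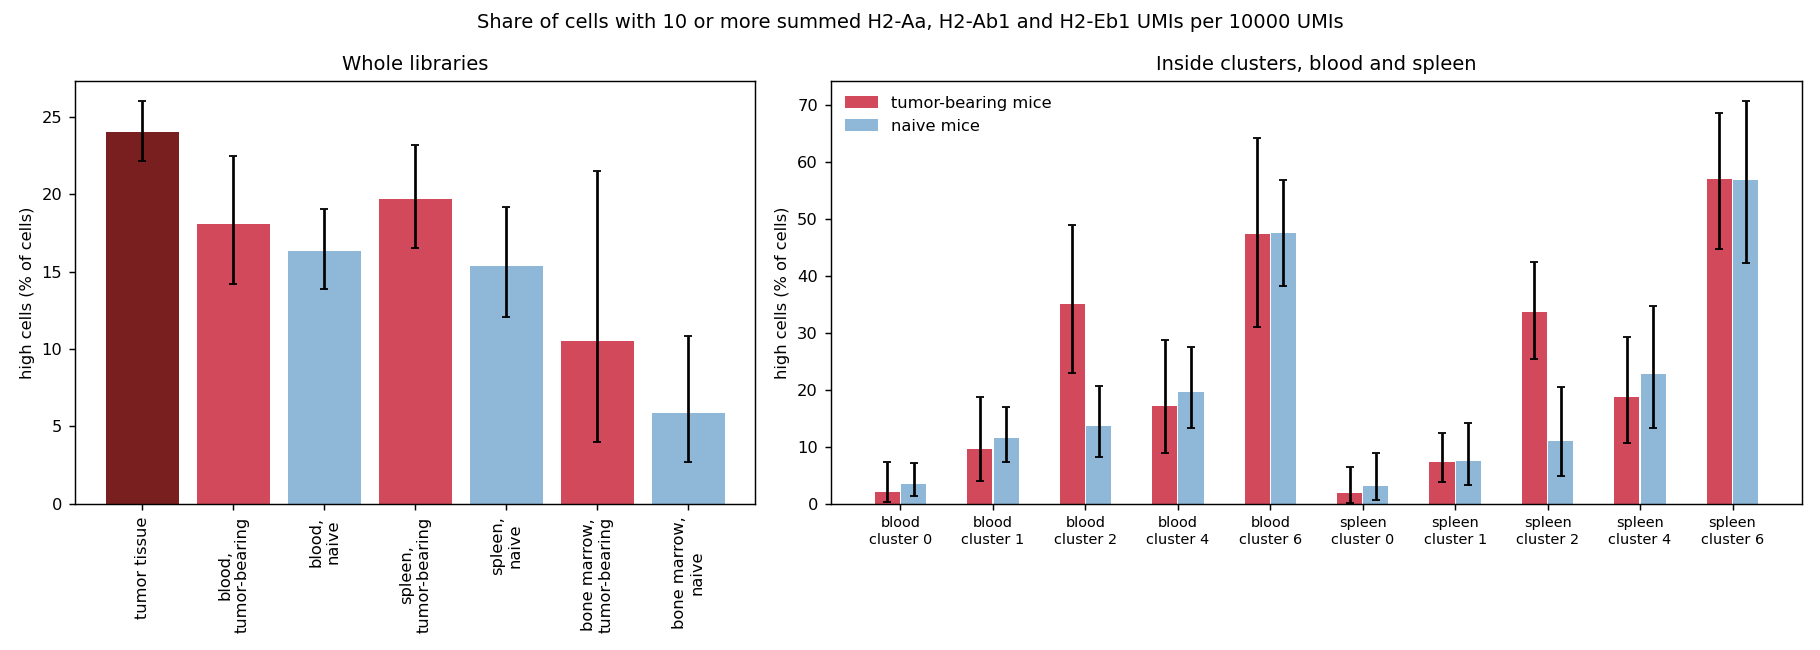
Share of cells with 10 or more summed H2-Aa, H2-Ab1 and H2-Eb1 UMIs per 10000 UMIs (y axes, percent), in the 7 libraries on the left and inside clusters 0, 1, 2, 4 and 6 of blood and spleen on the right, with exact 95% Clopper-Pearson whiskers. Cluster 2 has 35.1% high cells in blood of tumor-bearing mice and 13.6% in naive blood, and 33.6% and 11.0% in spleen. The whiskers cover the counting of cells only.

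Inside cluster 2 the class II chains were higher in tumor-bearing mice, in blood and in spleen. Its leading genes included Fam26f, Slc40a1, Ifi47, Vcam1, Slfn1, Mnda, Gm12250, Gbp5 and Irgm2, several of them known interferon-induced genes, and no member was among them. It held 57 cells in blood of tumor-bearing mice and 132 in naive blood, and 128 cells in spleen of tumor-bearing mice and 73 in naive spleen. In blood, H2-Aa stood at 2022 CPM in tumor-bearing and 527 in naive mice, H2-Ab1 at 1789 and 429, H2-Eb1 at 1223 and 217, and Cd74 at 7567 and 2692. The ratios were 5.63 for H2-Eb1 (4.97 to 6.39), 4.17 for H2-Ab1 (3.81 to 4.58), 3.84 for H2-Aa (3.53 to 4.18) and 2.81 for Cd74 (2.70 to 2.93), so that 4 of 7 members were higher and 0 lower, beside 1.52% and 1.44% of the genes measured in that cluster. Ciita had a ratio of 1.94 (1.12 to 3.35) from 28 UMIs in tumor-bearing and 31 in naive mice, H2-DMb1 of 1.81 (1.55 to 2.13) and H2-DMa of 1.22 (1.07 to 1.39).

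In spleen, H2-Aa stood at 1138 CPM in cluster 2 of tumor-bearing mice and 455 in that of naive mice, H2-Ab1 at 909 and 388, H2-Eb1 at 587 and 194, Cd74 at 4788 and 1877, and Ciita at 61.7 and 23.4. With ratios of 3.03 for H2-Eb1 (2.54 to 3.64), 2.64 for Ciita (1.57 to 4.67), 2.55 for Cd74 (2.41 to 2.70), 2.50 for H2-Aa (2.23 to 2.82) and 2.34 for H2-Ab1 (2.06 to 2.66), 5 of 7 members were higher and 0 lower, beside 2.11% and 1.01% of measured genes. H2-DMb1 had a ratio of 1.66 (1.34 to 2.09) and H2-DMa of 1.27 (1.10 to 1.47). The H2-Ab1 call in spleen ended with cells thinned to 3000 UMIs, where its ratio was 1.65 and that of Ciita 5.78. Before thinning, Ciita had 83 UMIs there in tumor-bearing and 18 in naive mice, so its thinned ratio rests on few UMIs and is uncertain. In blood the Ciita ratio was 1.29 after thinning, and Ciita was called higher at 2.16 without cells that held a UMI of a B cell gene. Without the 5% of cells with the most chain UMIs, the ratios in blood were 10.48 for H2-Eb1 and 6.14 for H2-Aa. Without them in spleen they were 5.36 for H2-Eb1, 4.796 for H2-Aa, 4.70 for H2-Ab1 and 3.90 for Cd74. That step leaves out cells by the very values compared, so the larger ratios lend no further support. In blood, high cells held 98.0% of the chain UMIs of this cluster in tumor-bearing and 92.9% in naive mice. The share of high cells was 35.1% in tumor-bearing and 13.6% in naive mice in blood (22.9% to 48.9% and 8.29% to 20.7%), and 33.6% and 11.0% in spleen (25.5% to 42.5% and 4.85% to 20.5%). After thinning, it was 38.6% and 17.4% in blood and 33.1% and 11.3% in spleen. At a limit of 5 it was 42.1% and 18.9% in blood and 37.5% and 12.3% in spleen, and at 20 it was 31.6% and 12.1% in blood and 24.2% and 9.59% in spleen.

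The pooled surface tag moved with the RNA in cluster 2. Per 10000 tag counts, the I-A/I-E antibody gave 182 in tumor-bearing and 82.0 in naive mice in blood, and 194 and 124 in spleen. The medians over cells were closer, at 70.1 in tumor-bearing and 62.2 in naive mice in blood and 106 and 92.9 in spleen. The neutrophil-like cluster 12, the background used below, had a pooled share of 70.8 and a median of 64.0. Both blood medians lay near that median, so they are not read as a protein difference. In spleen the pooled share of cluster 0, low in chains, was 101 in tumor-bearing and 96.7 in naive mice. The level exceeded by the top 10% of cells was 434 in tumor-bearing and 130.2 in naive mice in blood, and 429 and 199.7 in spleen. In RNA, the median cell had 1.45 summed chain UMIs per 10000 in tumor-bearing and 0.817 in naive mice in blood, and 2.38 and 0.841 in spleen. Cells with 0 chain UMIs made up 29.8% in tumor-bearing and 42.4% in naive mice in blood, and 17.2% and 42.5% in spleen.

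Markers of other cells moved in cluster 2 as well. B cell markers summed to 376 CPM in tumor-bearing and 282 in naive mice in blood, and to 365 and 392 in spleen, with Pax5 and Ebf1 at 0 in all 4. Conventional dendritic cell markers summed to 117 and 151 in blood and to 110.0 and 145 in spleen, and Zbtb46 and Ccr7 were at 0 in all 4. Macrophage markers summed to 133 and 171 in blood, and to 367 and 212 in spleen, where C1qa, C1qb and C1qc were higher in tumor-bearing mice. Non-classical monocyte markers summed to 728 and 466 in blood and to 792 and 495 in spleen, and neutrophil markers to 2338 and 2257 in blood and to 3539 and 1652 in spleen. Among single markers in blood, the B cell gene Cd79a and Chil3, Ear2, Ace and Eno3 were higher in tumor-bearing mice, and Cd209a was lower. In that comparison 1.52% of measured genes were higher and 1.44% lower. In spleen Ace, Eno3, Cd36, S100a8, Retnlg and Ngp were also higher and Flt3 was lower, beside 2.11% and 1.01% of measured genes. The part of these markers in the result was not tested, beyond the B cell and C1q genes. Without cells that held a UMI of a B cell gene, the H2-Aa ratio was 3.62 in blood and 2.84 in spleen, and without cells that held a C1q UMI it was 4.29 and 3.32. The interferon feedback gene Socs1 was higher in cluster 2 at 60.1 CPM in tumor-bearing and 13.02 in naive mice in blood (45 and 21 UMIs), and at 32.7 and 12.99 in spleen (44 and 10 UMIs). The kinase gene Jak2 was higher in spleen at 55.8 and 27.3 CPM, so that 1 of 8 genes of that list was higher in blood and 2 of 8 in spleen, beside 1.52% and 2.11% of measured genes.

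**Figure D4:**
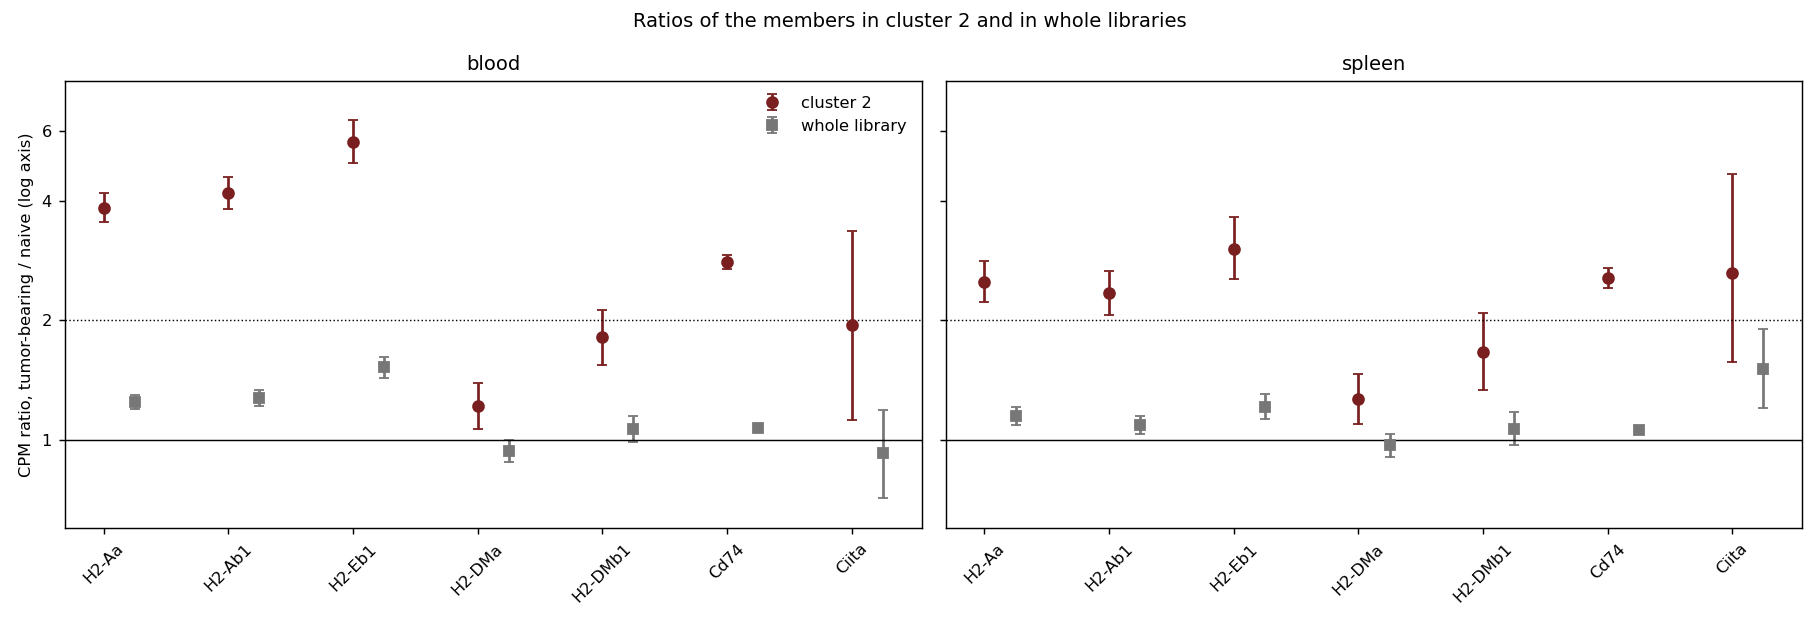
CPM ratio of tumor-bearing over naive mice (y axis, log scale) for each member in blood (left) and spleen (right), with circles for cluster 2, squares for the whole library and whiskers for exact 95% intervals. A dotted line marks the 2-fold limit, which 4 members pass in cluster 2 of blood and 5 in that of spleen, while whole libraries stay between 0.93 and 1.52.

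Inside the other clusters no member was higher in tumor-bearing mice, and the difference between clusters was not tested. In cluster 1, 0 members were higher or lower in blood, where 0.926% of genes were higher and 0.574% lower, or in spleen, with 0.997% and 0.689%. In cluster 6, 0 were called in blood, with 1.68% and 1.81%, or in spleen, with 1.67% and 1.03%. H2-Aa had ratios of 0.79 in blood and 0.82 in spleen in cluster 1, and of 1.10 and 0.88 in cluster 6. In the non-classical monocyte-like cluster 4, 0 members were called in blood, where 1.07% of genes were higher and 0.797% lower. In spleen H2-Eb1 was lower at 0.49 (0.36 to 0.65), and 0 members were higher, where 1.26% of genes were lower and 1.2% higher. That call ended without the cell with the most H2-Eb1 UMIs, at a ratio of 0.71. In cluster 0 of blood, H2-Eb1 at 11.7 CPM in tumor-bearing and 39.3 in naive mice, H2-Aa at 28.1 and 70.7 and Cd74 at 269 and 619 were lower, where 0.693% of genes were lower and 1.09% higher. Those calls ended without the 5% of cells with the most chain UMIs, where the ratio was 1.13 for H2-Aa, 0.64 for H2-Eb1 and 0.53 for Cd74, against 0.44 for Cd74 with all cells. Without cells that held a UMI of a B cell gene the H2-Aa and Cd74 calls ended, at 0.56 and 0.58. H2-Ab1 was called lower there after thinning, at 0.31, and without its top cell, at 0.41. In cluster 0 of bone marrow, Cd74 was lower at 97.4 CPM in tumor-bearing and 351 in naive mice, where 2.76% of genes were lower and 1.67% higher. In cluster 0 of spleen 0 members were called, where 1.87% of genes were higher and 0.707% lower, but Cd74, at a ratio of 0.74, was lower at 0.45 without cells that held a UMI of a B cell gene. Clusters with under 30 cells in either library were not compared.

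Tumor tissue had 3.85 Ciita UMIs per 1000 summed chain UMIs, whereas blood had 10.8, spleen 25.9 and bone marrow 23.5 in tumor-bearing mice. In naive mice the value was 15.3 in blood, 19.6 in spleen and 40.7 in bone marrow. Tumor tissue was lowest on this scale for the other members too. H2-DMa had 92.5 UMIs per 1000 chain UMIs there and 176 to 1006 in the other libraries, H2-DMb1 had 85.0 and 109 to 397, and Cd74 had 1238 and 1676 to 2906. Over clusters the Ciita value was 0 to 5.95 in the 9 clusters mostly of tumor tissue, and 13.3 to 48.2 in the other 7, of which cluster 12 rests on 1 Ciita UMI. Cluster 3, led by Spp1 and Arg1 in tumor tissue, had H2-Aa at 906 CPM and Ciita at 3.65 CPM. Cluster 2, mostly of other tissues, had H2-Aa at 897 CPM and Ciita at 34.8 CPM. In cluster 7, led by Thbs1 and Slpi, Ciita had 0 UMIs in 285 cells, which allows a share of up to 1.05% of cells with a UMI, while H2-Aa was at 212 CPM.

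Ciita was also read among high cells alone. In high cells H2-Aa stood at 3251 CPM in tumor tissue, 4114 in blood and 2968 in spleen of tumor-bearing mice. Ciita stood there at 30.1 CPM in tumor tissue (191 UMIs in 461 cells), 69.1 in blood (57 UMIs in 64 cells) and 136 in spleen (159 UMIs in 114 cells). The H2-Aa ratio of tumor tissue was 0.79 against blood and 1.10 against spleen. The Ciita ratio was 0.43 against blood (0.32 to 0.60) and 0.22 against spleen (0.18 to 0.28). Without clusters 6 and 17 it was 0.37 and 0.20, and without cells that held a B cell UMI 0.41 and 0.24. High cells of naive mice had 79.4 CPM of Ciita in blood and 116 in spleen. Among the remaining cells Ciita stood at 1.52 CPM in tumor tissue, 8.92 in blood and 16.4 in spleen of tumor-bearing mice, and at 8.96 in naive blood and 8.97 in naive spleen. The B cell and macrophage marker sums that separate tumor tissue from the other libraries are given above, and the part of macrophage RNA in the Ciita difference was not tested.

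**Figure D5:**
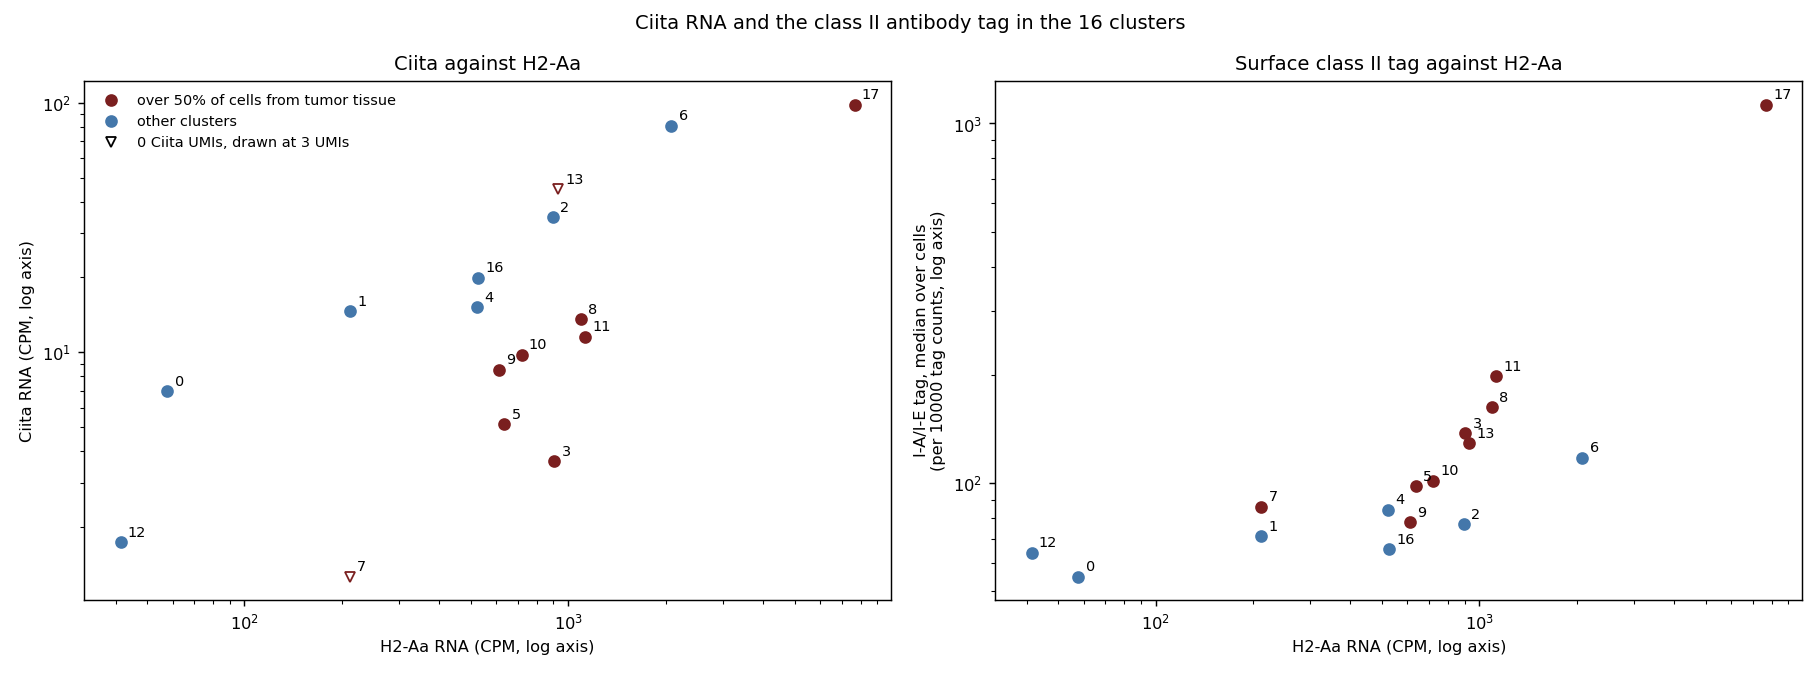
Ciita RNA (left, CPM) and the median I-A/I-E tag over cells (right, per 10000 tag counts) against H2-Aa RNA (x axes, CPM) in the 16 clusters, all on log axes, with red for clusters mostly of tumor tissue and open triangles for clusters with 0 Ciita UMIs, drawn at the floor of 3 UMIs. At like H2-Aa, cluster 3 has 3.65 CPM of Ciita and cluster 2 has 34.8, and cluster 17 has the highest tag at 1128.

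The I-A/I-E antibody gave the protein side in the same cells, as a share of the counts of 47 antibodies. Its pooled share was 237 per 10000 in tumor tissue, 120.4 in blood, 160.2 in spleen and 69.9 in bone marrow of tumor-bearing mice. In naive mice it was 108 in blood, 135 in spleen and 58.7 in bone marrow. The ratio of tumor-bearing to naive mice was 1.12 in blood (1.10 to 1.14), 1.19 in spleen (1.16 to 1.22) and 1.19 in bone marrow (1.11 to 1.27), and the medians over cells gave 0.91 in blood and 0.99 in spleen. Tumor tissue had a ratio of 1.97 against blood (1.94 to 1.99) and 1.48 against spleen. The tag share depends on the other 46 antibodies of a cell, and median tag counts per cell ran from 1602 in tumor tissue to 6045 in blood of tumor-bearing mice. The median was 1128 in cluster 17, 199 in the macrophage-like cluster 11, 118 in cluster 6 and 64.0 in the neutrophil-like cluster 12, which serves as the background. The pooled share of cluster 12 was 70.8, above both bone marrow shares, so their ratio is not read as a protein difference. The library medians were also below that of cluster 12 in blood (56.0 in tumor-bearing and 61.4 in naive mice) and in bone marrow (53.3 and 47.5). High cells exceeded other cells in their median tag by 3.83-fold in tumor tissue, 3.60-fold in blood, 2.69-fold in spleen and 2.27-fold in bone marrow of tumor-bearing mice. The difference was 3.62-fold in blood, 2.56-fold in spleen and 2.95-fold in bone marrow of naive mice. The bone marrow folds rest on 6 high cells in tumor-bearing and 9 in naive mice. In blood and bone marrow the other cells had medians of 47.0 to 56.2, below the 64.0 of cluster 12. Those folds therefore stand on a background denominator and are uncertain. Across cells of 1 library, the Spearman correlation of the summed chains with the tag ran from 0.29 to 0.55, and that of H2-DMa with the tag from 0.00061 to 0.24. Cells of a library share depth and free RNA, so these values carry no test.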

How the data were processed

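Per the labels' protocols, RNA and antibody tag libraries were made with Chromium 3′ chemistry, and the submitters' processing notes name Cell Ranger and mm10. The deposited RNA values are UMI counts, and the deposited tag values are counts for 47 antibodies, in 4290 cells, with library and cluster in metadata of 4527 cells. The 237 cells without counts were left out. How the authors filtered cells is not known from these sources, and no further filter or doublet caller was applied. UMIs were summed per library or cluster and divided by total UMIs (CPM). Exact 95% intervals cover counting error only. Each group was 1 library, so no test was run. A fold against 0 UMIs used a floor of 3 UMIs. Likeness was the correlation of log2(CPM + 1), with 8 genes named for the 6 members other than Ciita and 5 for Ciita. All 7 members were named, and from the pathway lists those past 2-fold or with the 2 largest ratios, while other values were chosen after they were seen. Members and lists were chosen with earlier results of these data known. Clusters were named from 3 or more fixed markers among 10 leading genes (pseudo-count 10 CPM), and left unnamed where those genes also marked another cell type, as in cluster 6. Cells were thinned to 3000 UMIs with a fixed seed. Python 3.11.15, numpy 2.4.6, pandas 2.3.3 and scipy 1.17.1 were used. The ratio scripts were tested on simulated data.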

Additional observations from a re-analysis of the deposited data

How the results depend on the processing

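No paired analysis was possible because each group was 1 library and the labels give no replicate numbers. Of 7 calls over whole libraries, recomputed under alternatives (56 values), 53 were kept, 3 ended and 0 reversed. The 3 that ended were all H2-DMb1 in tumor tissue over bone marrow. In tumor-bearing over naive mice, 0 members were higher as reported, but 1 was higher in blood without clusters 6 and 17, and in bone marrow 1 was higher without those clusters, 1 without cells with a B cell UMI and 2 with equal mixes of clusters. In tumor tissue over blood of tumor-bearing mice, 1 member, Ciita, was lower with cells thinned to 3000 UMIs and with mitochondrial, ribosomal-protein and haemoglobin genes left out of the total. The cause was not tested. The tag ratio of tumor-bearing over naive blood was 1.12 as reported, 0.91 by the median over cells, 1.08 without cells with a B cell UMI and 1.18 without clusters 6 and 17. That of spleen was 0.99 by the median and 1.11 without clusters 6 and 17, and that of bone marrow 1.30 without these clusters. For tumor tissue over blood it was 2.16 by the median, 2.36 without cells with a B cell UMI and 2.39 without clusters 6 and 17, and over spleen 1.24, 1.45 and 1.68. Inside clusters, 84 values of 14 calls were recomputed, of which 73 were kept and 11 ended, reversals included, and 4 values of members not called as reported were called. H2-Eb1 in cluster 4 of spleen lost its call under 5 of them, at 0.50 to 0.71. H2-Aa in cluster 0 of blood reversed to 1.13 without the 5% of cells with the most chain UMIs. That alternative, the one on C1q, the mean over cells and thinning inside clusters, and limits of 5 and 20 for high cells, were chosen after seeing the data. At those limits the high share in tumor tissue was 28.5% and 19.5%. Single libraries, 57 cells in bone marrow of tumor-bearing mice and rare Ciita UMIs limit what can be told.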
